A study of Homo sapiens with 6 samples.

Results

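Antisense and divergent non-coding transcripts are long RNAs that are named after a neighbouring gene, with the ending -AS where the RNA lies on the opposite strand and -DT where it starts near the gene's promoter and runs away from it. The genes described here are all named genes on the array whose symbol ends in -AS, with or without a digit, or in -DT, and whose mean log2 value over the 6 arrays was at least 5. They number 112 of 14883 named genes, with 89 antisense names and 23 divergent names. A further 475 genes of the same naming lay under 5. The members were chosen by their name and by their mean level over both groups, so the levels are a description. The rule does not use the difference between the groups, but it was set with earlier results of these data known.

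Gene expression had been measured in SK-N-BE(2), an established human neuroblastoma cell line. One group carried shBRG1, a lentiviral pLKO hairpin against BRG1 (3 arrays), and the other carried NSC, a non-silencing pLKO hairpin (3 arrays). Cells were harvested 48 h after infection, and Affymetrix arrays were hybridised with 200 ng of total RNA per sample. BRG1 is an ATPase of SWI/SNF chromatin remodelling complexes and is encoded by SMARCA4. No probe set used here carried that symbol, so the depletion of the target was not analysed here. The labels name 1 cell line and 1 hairpin against BRG1, and do not say whether the 3 cultures of a group were handled separately, so the p-values reflect the spread among these samples alone and may not cover biological variation.

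Many mammalian promoters are transcribed in both directions. The strand of the protein-coding gene gives a long mRNA, whereas the opposite strand often gives a short-lived non-coding RNA that is ended early and degraded by the nuclear RNA exosome. Transcripts named -AS can also start inside a gene and run across its exons, and a few are known to act on the mRNA of the partner gene.

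Promoter windows are printed for 9 members, to show the layout of 2 outward-facing starts that the comparison with neighbouring genes rests on. Each window holds 300 bases, 250 before and 50 after a listed start of the member, from RefSeq on GRCh38.p14, and is written 5′ to 3′ on the member's strand. Capitals mark the stretch from the listed start of the facing protein-coding gene to that of the member, both start bases included. The first 7 belong to members that rose in shBRG1 cells. TMCC1-DT (chr3:129893621-129893920, plus strand) starts 160 bases from TMCC1, KTN1-AS1 (chr14:55580043-55580342, minus strand) 115 bases from KTN1, and ZNF674-AS1 (chrX:46545240-46545539, plus strand) 69 bases from ZNF674.
TMCC1-DT: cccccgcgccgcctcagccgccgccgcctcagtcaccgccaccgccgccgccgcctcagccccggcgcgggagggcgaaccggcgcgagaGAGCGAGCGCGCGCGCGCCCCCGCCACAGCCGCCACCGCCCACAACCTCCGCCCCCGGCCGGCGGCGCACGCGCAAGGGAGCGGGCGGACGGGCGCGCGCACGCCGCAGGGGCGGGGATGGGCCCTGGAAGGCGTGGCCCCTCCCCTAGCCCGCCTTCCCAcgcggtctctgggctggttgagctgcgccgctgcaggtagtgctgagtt
KTN1-AS1: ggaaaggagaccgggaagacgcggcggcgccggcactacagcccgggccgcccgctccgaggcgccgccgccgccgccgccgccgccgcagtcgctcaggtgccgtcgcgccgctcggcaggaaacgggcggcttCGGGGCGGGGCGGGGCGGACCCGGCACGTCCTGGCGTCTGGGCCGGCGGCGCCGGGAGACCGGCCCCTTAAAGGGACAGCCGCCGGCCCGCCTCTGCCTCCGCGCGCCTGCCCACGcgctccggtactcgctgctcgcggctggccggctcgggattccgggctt
ZNF674-AS1: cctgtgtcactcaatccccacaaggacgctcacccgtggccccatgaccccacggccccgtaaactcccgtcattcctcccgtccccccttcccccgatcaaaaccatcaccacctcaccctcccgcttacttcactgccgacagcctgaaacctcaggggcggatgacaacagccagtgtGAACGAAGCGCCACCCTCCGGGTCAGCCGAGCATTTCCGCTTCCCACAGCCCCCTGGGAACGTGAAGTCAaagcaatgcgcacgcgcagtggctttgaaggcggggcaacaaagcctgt
BOLA3-DT (chr2:74147731-74148030, plus strand) starts 69 bases from BOLA3, and RBM26-AS1 (chr13:79406059-79406358, plus strand) 54 bases from RBM26.
BOLA3-DT: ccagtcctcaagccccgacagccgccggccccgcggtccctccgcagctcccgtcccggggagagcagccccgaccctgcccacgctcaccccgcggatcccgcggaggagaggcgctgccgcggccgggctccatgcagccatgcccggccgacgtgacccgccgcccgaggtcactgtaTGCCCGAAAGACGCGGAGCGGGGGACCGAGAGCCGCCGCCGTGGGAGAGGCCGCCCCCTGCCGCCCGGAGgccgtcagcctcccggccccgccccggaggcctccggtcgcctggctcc
RBM26-AS1: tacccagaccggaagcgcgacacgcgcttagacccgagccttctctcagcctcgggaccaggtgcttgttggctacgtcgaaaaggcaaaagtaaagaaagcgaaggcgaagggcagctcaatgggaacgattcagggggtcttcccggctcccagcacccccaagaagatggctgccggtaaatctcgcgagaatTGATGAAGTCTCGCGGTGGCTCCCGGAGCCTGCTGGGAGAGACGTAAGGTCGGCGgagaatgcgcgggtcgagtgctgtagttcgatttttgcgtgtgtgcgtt
CD27-AS1 (chr12:6451468-6451767, minus strand) and MRPL20-AS1 (chr1:1399280-1399579, plus strand) face genes whose names they do not bear. CD27-AS1 lies 132 bases from TAPBPL, and MRPL20-AS1 lies 195 bases from CCNL2.
CD27-AS1: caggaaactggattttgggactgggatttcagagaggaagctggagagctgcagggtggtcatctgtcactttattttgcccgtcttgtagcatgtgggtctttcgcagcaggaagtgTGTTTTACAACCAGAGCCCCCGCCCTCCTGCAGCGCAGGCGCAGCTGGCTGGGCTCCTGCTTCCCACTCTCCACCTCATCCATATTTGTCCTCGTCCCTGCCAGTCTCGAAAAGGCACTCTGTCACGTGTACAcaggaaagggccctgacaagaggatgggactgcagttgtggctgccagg
MRPL20-AS1: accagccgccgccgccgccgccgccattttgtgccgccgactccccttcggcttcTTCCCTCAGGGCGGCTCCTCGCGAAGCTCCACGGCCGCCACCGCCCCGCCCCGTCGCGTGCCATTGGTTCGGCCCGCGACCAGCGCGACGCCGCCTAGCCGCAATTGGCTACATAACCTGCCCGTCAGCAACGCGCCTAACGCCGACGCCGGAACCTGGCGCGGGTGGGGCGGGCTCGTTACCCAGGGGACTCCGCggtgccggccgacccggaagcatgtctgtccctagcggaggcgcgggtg
The last windows belong to members that did not pass the test. RNASEH1-DT (chr2:3558136-3558435, plus strand) starts 53 bases from RNASEH1, and HAND2-AS1 (chr4:173530208-173530507, plus strand) 229 bases from HAND2.
RNASEH1-DT: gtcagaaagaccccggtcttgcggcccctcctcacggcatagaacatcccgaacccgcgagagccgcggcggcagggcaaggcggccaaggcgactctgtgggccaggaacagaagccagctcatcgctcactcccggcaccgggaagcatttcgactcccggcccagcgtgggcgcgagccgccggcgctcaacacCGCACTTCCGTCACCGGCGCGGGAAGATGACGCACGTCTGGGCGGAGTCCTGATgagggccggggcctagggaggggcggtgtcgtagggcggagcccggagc
HAND2-AS1: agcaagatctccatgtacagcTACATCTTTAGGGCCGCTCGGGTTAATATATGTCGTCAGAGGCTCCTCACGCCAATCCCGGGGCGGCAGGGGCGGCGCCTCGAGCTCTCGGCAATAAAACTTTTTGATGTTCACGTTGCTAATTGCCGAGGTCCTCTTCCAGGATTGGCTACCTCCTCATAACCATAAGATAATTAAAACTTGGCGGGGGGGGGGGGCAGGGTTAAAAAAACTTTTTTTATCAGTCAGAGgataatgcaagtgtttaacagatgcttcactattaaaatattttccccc

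The arrays had medians between 3.77 and 3.84 on the log2 scale, and Pearson's r across probe sets was 0.9907 to 0.9925 within a group and 0.986 to 0.9881 between groups. The label of a neuroblastoma line was set against marker lists. All 13 measured sympathetic neuroblast markers were at or above 5, and 7 of them fell in shBRG1 cells, while 11.7% of named genes at that level fell. PHOX2A, HAND2, GATA2, ISL1, CHGA, CHGB and RET fell, and HAND1, GATA3, TH, DBH, DDC and STMN2 did not pass. The log2 values of the 13 markers summed to 124 to 125 per shBRG1 array and 127 to 128 per NSC array. Of 8 fibroblast markers, 3 were measured, and LUM (8.63 in shBRG1, 8.24 in NSC) and DCN (5.39 in shBRG1, 4.96 in NSC) rose. Their summed log2 values were 17.8 to 18.1 in shBRG1 and 16.4 to 17.0 in NSC. Of 8 Schwann and glial markers, 6 were measured. SOX10, the only 1 at or above 5 (mean 5.10), did not pass the threshold of 0.05 (limma, adjusted p = 0.0532). FOXD3 fell, at a mean of 2.80, which is below the array medians. CD14, the measured leukocyte marker, had a mean of 4.68. The part of these markers in the results was not tested, and in bulk RNA a smaller number of cells of a type cannot be told apart from less RNA per cell.

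In shBRG1 cells 25 of the 112 transcripts rose and 3 fell, while 84 did not pass an adjusted p of 0.05 (limma, Benjamini-Hochberg over all named genes). The 28 calls are 25.0% of the members, against 17.0% of all named genes (9.78% higher, 7.19% lower) and 28.8% of the 7623 named genes at or above 5. The share of members past the threshold was thus not above that of named genes at or above 5, which were brighter (median level 5.70 for the members and 6.90 for those genes). By direction, 22.3% of members rose and 2.68% fell, against 17.1% and 11.7% of named genes at or above 5. The number of falls depended on the level asked for: with a mean of at least 4.5 there were 29 rises and 7 falls, and with the test limited to genes at or above the median gene 33 rises and 6 falls. The median log2 change of the members was 0.13, with a range of -0.63 to 1.26, and 76 changes lay above 0. The median was 0.06 over named genes at or above 5 and 0.01 over all named genes. After cyclic loess 21 members rose and 4 fell, and it moved the members' median to 0.08 and that of named genes at or above 5 to 0.000658.

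**Figure D1:**
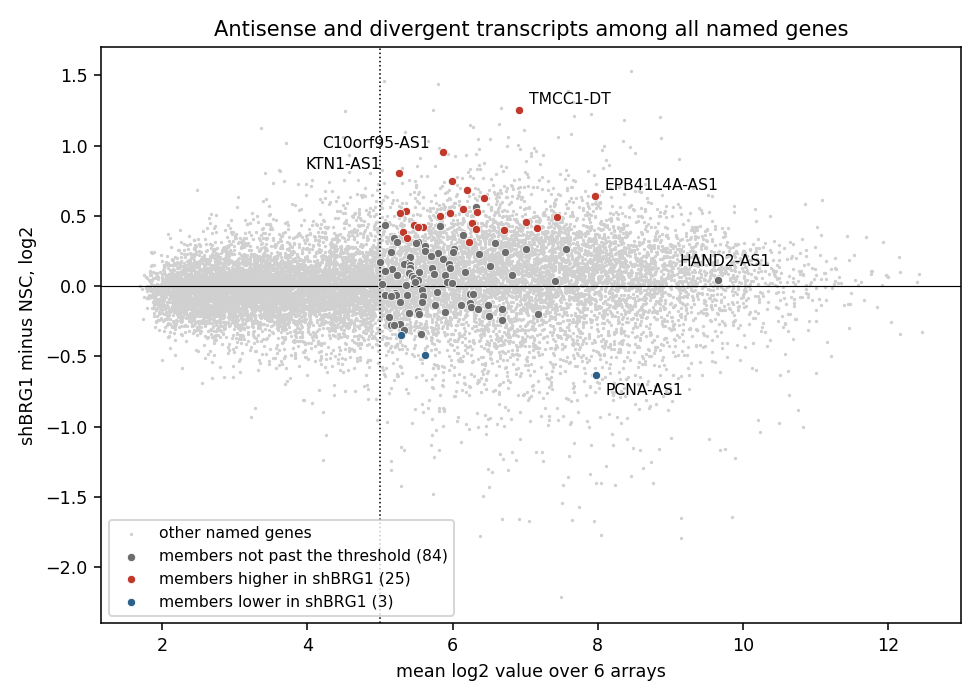
The plot of log2 change (shBRG1 minus NSC) against mean log2 level over the 6 arrays shows the 112 members as larger points among the other named genes in light grey, coloured by whether they rose (25), fell (3) or did not pass the threshold (84). Among the members, the points above 0 outnumber those below, 76 to 36, and the brightest member, HAND2-AS1, lies near 0.

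TMCC1-DT, the divergent transcript of a gene for an endoplasmic reticulum membrane protein, had the largest change of the members. It read 7.50, 7.64 and 7.50 in the shBRG1 arrays, against 6.38, 6.39 and 6.10 in the NSC arrays. It rose 2.39-fold (log2 change 1.26 ± 0.10, adjusted p = 0.000429, where ± is the moderated SE here and for every change below), and every shBRG1 array lay more than 1 log2 unit above every NSC array. C10orf95-AS1, named after an uncharacterised open reading frame, read 6.25, 6.38 and 6.39 in the shBRG1 arrays, against 5.17, 5.68 and 5.32 in the NSC arrays. It rose 1.94-fold (log2 change 0.95 ± 0.13, adjusted p = 0.00327) with no overlap between the groups. This value is from the brighter of 2 probe sets. The dimmer one, with a mean of 3.83, differed by 0.10, and the average of both gave a change of 0.53.

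KTN1-AS1 lies beside the gene for kinectin, an endoplasmic reticulum protein that binds the motor protein kinesin. Its values were 5.69, 5.73 and 5.55 in the shBRG1 arrays, against 4.78, 4.95 and 4.83 in the NSC arrays. The rise was 1.75-fold (log2 change 0.80 ± 0.08, adjusted p = 0.0012), and it was counted as a member although its NSC mean was under 5. ZNF674-AS1, beside a zinc finger gene, read 6.19, 6.55 and 6.34 in the shBRG1 arrays, against 5.80, 5.24 and 5.79 in the NSC arrays. It rose 1.68-fold (log2 change 0.75 ± 0.17, adjusted p = 0.0209), with NSC array 2 well below the other NSC arrays. BOLA3-DT, beside a gene for mitochondrial iron-sulphur cluster assembly, read 6.53, 6.53 and 6.54 in the shBRG1 arrays, against 5.96, 5.77 and 5.82 in the NSC arrays. Its shBRG1 arrays hardly differed among themselves, and it rose 1.60-fold (log2 change 0.68 ± 0.07, adjusted p = 0.00146).

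EPB41L4A-AS1, the third brightest member and a host transcript of a small nucleolar RNA, read 8.25, 8.35 and 8.24 in the shBRG1 arrays, against 7.65, 7.55 and 7.72 in the NSC arrays. It rose 1.56-fold (log2 change 0.65 ± 0.07, adjusted p = 0.00188). ARHGAP5-AS1 read 6.62, 6.86 and 6.74 in the shBRG1 arrays, against 5.97, 6.39 and 5.99 in the NSC arrays. It rose 1.55-fold (log2 change 0.63 ± 0.13, adjusted p = 0.0151), and NSC array 2 came closest to the shBRG1 arrays. These 7 transcripts are the members that rose by at least 1.5-fold.

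The other 18 members that rose did so by 1.24- to 1.47-fold. In each of the 25 every shBRG1 array exceeded every NSC array, which selection by the test makes likely and which adds no support. TMEM147-AS1, beside a gene for an endoplasmic reticulum membrane protein, read 6.34, 6.57 and 6.37 in the shBRG1 arrays, against 5.82, 5.91 and 5.88 in the NSC arrays (log2 change 0.55 ± 0.08, adjusted p = 0.00464). MRPL20-AS1, named after a mitochondrial ribosomal protein, read 6.26, 6.21 and 6.21 in the shBRG1 arrays, against 5.64, 5.58 and 5.89 in the NSC arrays (log2 change 0.52 ± 0.09, adjusted p = 0.00901). CD27-AS1, named after a lymphocyte receptor, read 6.03, 6.03 and 6.15 in the shBRG1 arrays, against 5.49, 5.58 and 5.65 in the NSC arrays (log2 change 0.50 ± 0.07, adjusted p = 0.00472). In each of these the gap between the groups was wider than the range within either group, by the least in MRPL20-AS1, whose NSC array 3 lay above the other NSC arrays.

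PRRT3-AS1 was among the brighter members that rose, with 7.70, 7.73 and 7.61 in the shBRG1 arrays, against 7.28, 7.10 and 7.19 in the NSC arrays (log2 change 0.49 ± 0.08, adjusted p = 0.00549). ZNF667-AS1 read 7.26, 7.20 and 7.25 in the shBRG1 arrays, against 6.86, 6.69 and 6.78 in the NSC arrays (log2 change 0.46 ± 0.07, adjusted p = 0.00549). RBM26-AS1, beside a gene for an RNA-binding protein, read 5.69, 5.74 and 5.64 in the shBRG1 arrays, against 5.21, 5.18 and 5.37 in the NSC arrays (log2 change 0.44 ± 0.08, adjusted p = 0.00873). The groups stood clearly apart in these transcripts. Averaged with a second probe set of mean 2.42, RBM26-AS1 no longer passed (adjusted p = 0.114). GNAO1-DT, beside the gene for a neuronal G protein alpha subunit, changed by 0.42 (adjusted p = 0.00807), and its second probe set differed by 0.27. EIF3J-DT, beside a translation initiation factor gene, changed by 0.40 (adjusted p = 0.00758), with 6.94, 6.95 and 6.84 in the shBRG1 arrays, against 6.50, 6.54 and 6.49 in the NSC arrays.

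The remaining rises were closer to the threshold. GARS1-DT, named after the gene for glycyl-tRNA synthetase, read 5.75, 5.62 and 5.51 in the shBRG1 arrays, against 5.33, 4.87 and 5.07 in the NSC arrays (log2 change 0.54 ± 0.13, adjusted p = 0.0255). LIN28B-AS1, beside the gene for the let-7 inhibitor LIN28B, read 6.55, 6.66 and 6.58 in the shBRG1 arrays, against 6.07, 5.78 and 6.36 in the NSC arrays (log2 change 0.53 ± 0.14, adjusted p = 0.038). In both the NSC arrays were more spread than the shBRG1 arrays. TSPEAR-AS2 changed by 0.52 (adjusted p = 0.0341), C2orf74-DT by 0.45 (adjusted p = 0.0226) and CKMT2-AS1, named after a mitochondrial creatine kinase, by 0.42 (adjusted p = 0.0259). PITPNA-AS1, named after a phosphatidylinositol transfer protein, changed by 0.41 (adjusted p = 0.0316) and PAXIP1-DT by 0.40 (adjusted p = 0.0478). ELOA-AS1, named after elongin A, changed by 0.39 (adjusted p = 0.043), PSMD6-AS2, named after a proteasome subunit, by 0.35 (adjusted p = 0.0366) and MCM3AP-AS1 by 0.31 (adjusted p = 0.0242).

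PCNA-AS1 had the largest fall of the members. PCNA is the sliding clamp of DNA replication. The antisense transcript read 7.41, 7.77 and 7.78 in the shBRG1 arrays, against 8.20, 8.24 and 8.42 in the NSC arrays. It fell 1.55-fold (log2 change -0.63 ± 0.12, adjusted p = 0.0105), and every shBRG1 array lay below every NSC array. HIF1A-AS2, named after the hypoxia factor HIF1A, read 5.44, 5.18 and 5.52 in the shBRG1 arrays, against 5.98, 5.90 and 5.73 in the NSC arrays (log2 change -0.49 ± 0.11, adjusted p = 0.0217). SLC25A25-AS1, named after a mitochondrial carrier, averaged 5.11 ± 0.10 in shBRG1 and 5.46 ± 0.09 in NSC (SD, n = 3 each, log2 change -0.35 ± 0.08, adjusted p = 0.0287). Neither of these showed any overlap between the groups.

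How far the calls rest on single arrays differed among the members. Those of TMCC1-DT, C10orf95-AS1, KTN1-AS1, BOLA3-DT, EPB41L4A-AS1, TMEM147-AS1, MRPL20-AS1, CD27-AS1, PRRT3-AS1, ZNF667-AS1, GNAO1-DT, EIF3J-DT and PCNA-AS1 held in all 14 alternatives run at this threshold. Without shBRG1 replicate 2 there were 16 calls in place of 28 (15 rises, 1 fall), without shBRG1 replicate 1 there were 18 (17 and 1), and without shBRG1 replicate 3 there were 19 (16 and 3). Without NSC replicate 1 or NSC replicate 2 there were 20 (19 and 1), and without NSC replicate 3 there were 21 (18 and 3). ZNF674-AS1 lost its call without shBRG1 replicate 2 or 3, and ARHGAP5-AS1 without NSC replicate 1 or shBRG1 replicate 2 or 3. HIF1A-AS2 and SLC25A25-AS1 lost theirs on leaving out replicate 1 or 2 of either group. For GARS1-DT the arrays whose omission ended the call were replicates 2 and 3 of NSC and replicates 1 and 2 of shBRG1, and for LIN28B-AS1 all but NSC replicate 3. Of the 6 omissions TSPEAR-AS2 and ELOA-AS1 withstood that of NSC replicate 2 alone, CKMT2-AS1 that of shBRG1 replicate 2 alone, and PSMD6-AS2 none. C2orf74-DT lost its call on leaving out replicate 2 or 3 of either group, and PAXIP1-DT on the same omissions as GARS1-DT. The call of PITPNA-AS1 ended without replicates 1 or 3 of NSC or 1 or 2 of shBRG1, and that of MCM3AP-AS1 without replicates 1 or 2 of NSC or 1 or 3 of shBRG1. After cyclic loess PITPNA-AS1, PAXIP1-DT, ELOA-AS1 and PSMD6-AS2 did not pass.

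**Figure D2:**
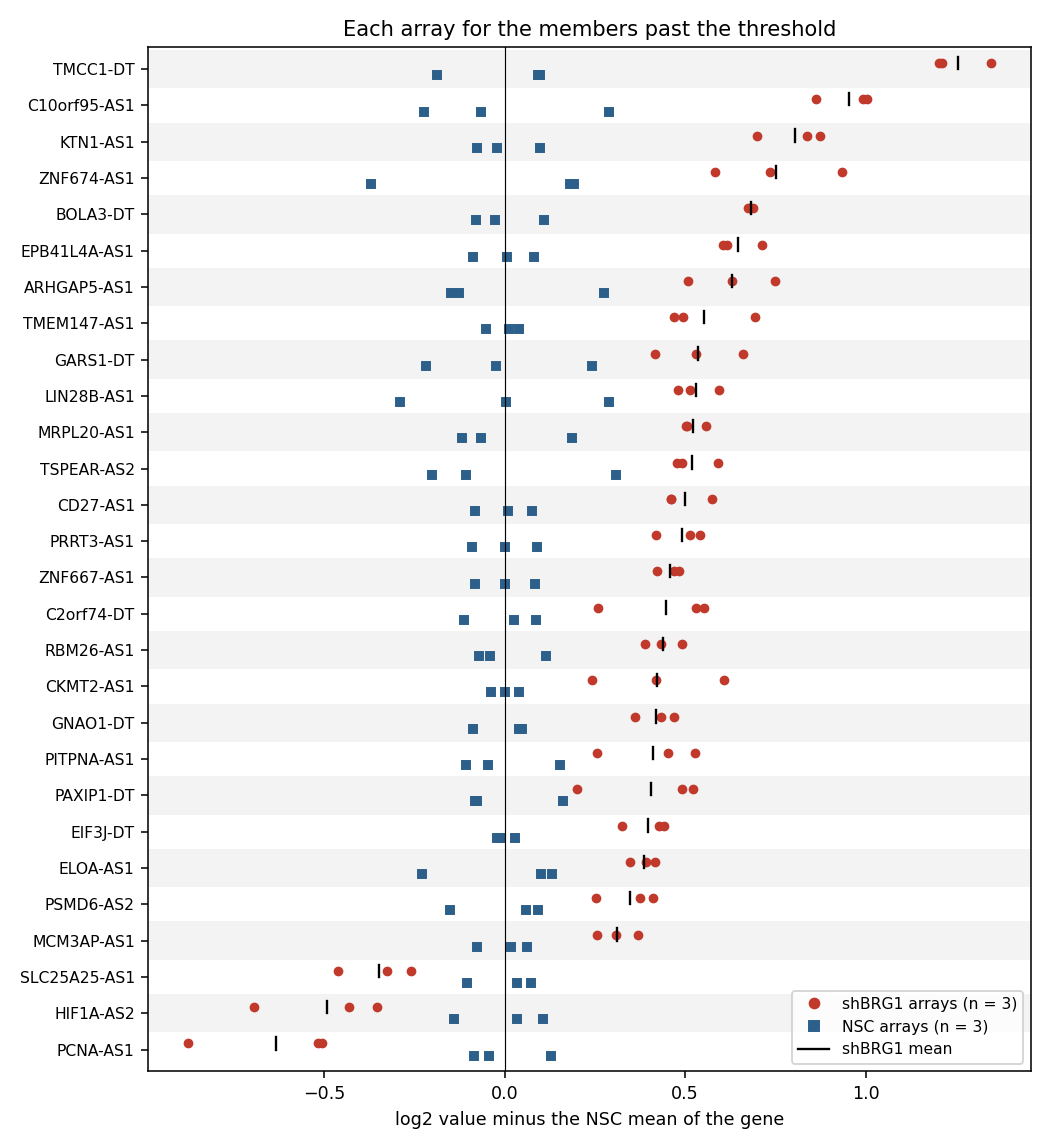
The plot gives, for each of the 28 members past the threshold, the log2 value on each array minus the gene's NSC mean, shBRG1 arrays (circles) above NSC arrays (squares), with a dash at the shBRG1 mean and the vertical line at the NSC mean. In every one of them the 3 shBRG1 values lie on one side of the 3 NSC values, which selection by the test makes likely. Those of TMCC1-DT lie farthest to the right.

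Among the 84 members not past the threshold, changes ran from -0.34 to 0.57. All shBRG1 arrays lay above NSC in 15 of them and below in 9, and the groups overlapped in 60. Over all members the groups did not overlap in 46.4%, against 35.5% of all named genes and 54.0% of named genes at or above 5. URB1-AS1, beside a ribosome biogenesis gene, came closest, with 6.69, 6.67 and 6.43 in the shBRG1 arrays, against 6.10, 5.68 and 6.32 in the NSC arrays (log2 change 0.57 ± 0.16, adjusted p = 0.0504). SMC5-DT differed by 0.43 (adjusted p = 0.222), MAN1B1-DT by 0.43 (adjusted p = 0.115), TCF12-DT by 0.36 (adjusted p = 0.138) and TOB1-AS1 by 0.34 (adjusted p = 0.117). For these 4 the values within a group spread widely, as in SMC5-DT, where the NSC arrays ran over 4.42 to 5.24. In all, 21 of the 84 had an unadjusted p under 0.05 without passing the adjusted threshold.

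HAND2-AS1 was the brightest member and is transcribed beside HAND2, a transcription factor gene of sympathetic neurons. It read 9.70, 9.67 and 9.68 in the shBRG1 arrays, against 9.67, 9.62 and 9.63 in the NSC arrays, a difference smaller than its SE (log2 change 0.05 ± 0.06, adjusted p = 0.688). BACE1-AS, an antisense transcript of the beta-secretase gene known to stabilise the BACE1 mRNA, read 7.74, 7.72 and 7.62 in the shBRG1 arrays, against 7.43, 7.33 and 7.53 in the NSC arrays (log2 change 0.26 ± 0.08, adjusted p = 0.0609), and BACE1 differed by 0.19 (adjusted p = 0.182). DHRS4-AS1 differed by 0.03 (adjusted p = 0.792), TMPO-AS1 by -0.20 (adjusted p = 0.187) and GABPB1-AS1 by 0.26 (adjusted p = 0.257). With PCNA-AS1, EPB41L4A-AS1, PRRT3-AS1, PITPNA-AS1 and ZNF667-AS1 these make up the 10 brightest members, of which 5 passed the threshold. Of all members 25.0% passed, and of named genes at or above 5 28.8%.

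At the edge of the level chosen, PTOV1-AS1 had a mean of 5.01, KMT2E-AS1 5.03 and HOXC13-AS 5.07. Just outside it were ATP2A1-AS1 at 4.99, SLFNL1-AS1 at 4.98 and SHANK2-AS1 at 4.98. SHANK2-AS1 averaged 4.75 in shBRG1 and 5.21 in NSC, a fall (log2 change -0.46, adjusted p = 0.00823) that does not count among the 3 falls of the members. GATA3-AS1, which lies outside the rule for named transcripts, was chosen after its values were seen because its probe sets differed. It lies beside GATA3, another sympathetic transcription factor gene. Its brighter probe set averaged 6.03 in shBRG1 and 5.88 in NSC, a change of 0.16 (adjusted p = 0.501), and the other, with a mean of 5.81, averaged 6.09 in shBRG1 and 5.52 in NSC, a change of 0.56. DDC-AS1, also outside the rule and named after the dopamine-forming decarboxylase, differed by -0.07 (adjusted p = 0.603), and DDC by 0.06 (adjusted p = 0.587).

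Protein-coding genes of the same stem were measured for 73 members, as 72 genes, since PAXIP1-DT and PAXIP1-AS2 share PAXIP1. The median change over these pairs was 0.13 for the members and 0.02 for the stem genes. Of the 72 stem genes 5 rose and 10 fell, or 20.8%, against 17.0% of all named genes and 28.8% of those at or above 5. Of 16 members that rose and had a measured stem gene, 1 had a stem gene that rose, LIN28B, and the stem genes of the other 15 did not pass, with changes between -0.23 (CD27) and 0.30 (TMCC1). KTN1, C10orf95, HIF1A and SLC25A25 were among the stem genes without a named probe set here. Across the 73 pairs Pearson's r between the changes was 0.42, and 0.47 over the 59 pairs whose stem gene was at or above 5. These correlations describe transcripts read on the same arrays, and pairs are not independent replicates.

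LIN28B averaged 9.71 ± 0.04 in shBRG1 and 9.31 ± 0.04 in NSC (here and for the means below ± is the SD, n = 3 each), and its change of 0.41 (adjusted p = 0.00595) was close to that of LIN28B-AS1. PCNA averaged 9.70 ± 0.10 in shBRG1 and 10.22 ± 0.04 in NSC and fell by 0.53 (adjusted p = 0.00393), and the fall of PCNA-AS1 differed from it by -0.11 ± 0.14 (adjusted p = 0.701). The other stem genes that rose were UBL7 (log2 change 0.50), ZBTB11 (0.40), URB1 (0.39) and STARD7 (0.26). UBL7 encodes a ubiquitin-like protein, ZBTB11 a zinc finger factor, URB1 a ribosome biogenesis factor and STARD7 a phosphatidylcholine carrier. The call of STARD7 was lost with any array left out, and that of ZBTB11 with any but NSC replicate 1. Among stem genes that fell, PCGF3 of a Polycomb complex changed by -0.49 (adjusted p = 0.0111), SVIL, an actin-binding protein gene, by -0.45 (adjusted p = 0.0106) and PRC1, which bundles spindle microtubules, by -0.40 (adjusted p = 0.00737). ZEB1, a repressor of epithelial genes, changed by -0.35 (adjusted p = 0.0102) and MED4, a Mediator subunit gene, by -0.32 (adjusted p = 0.0124). STARD4, GAS6, HAND2 and PXN also fell and are described with their pairs. None of the members paired with these 13 genes passed the threshold on its own.

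**Figure D3:**
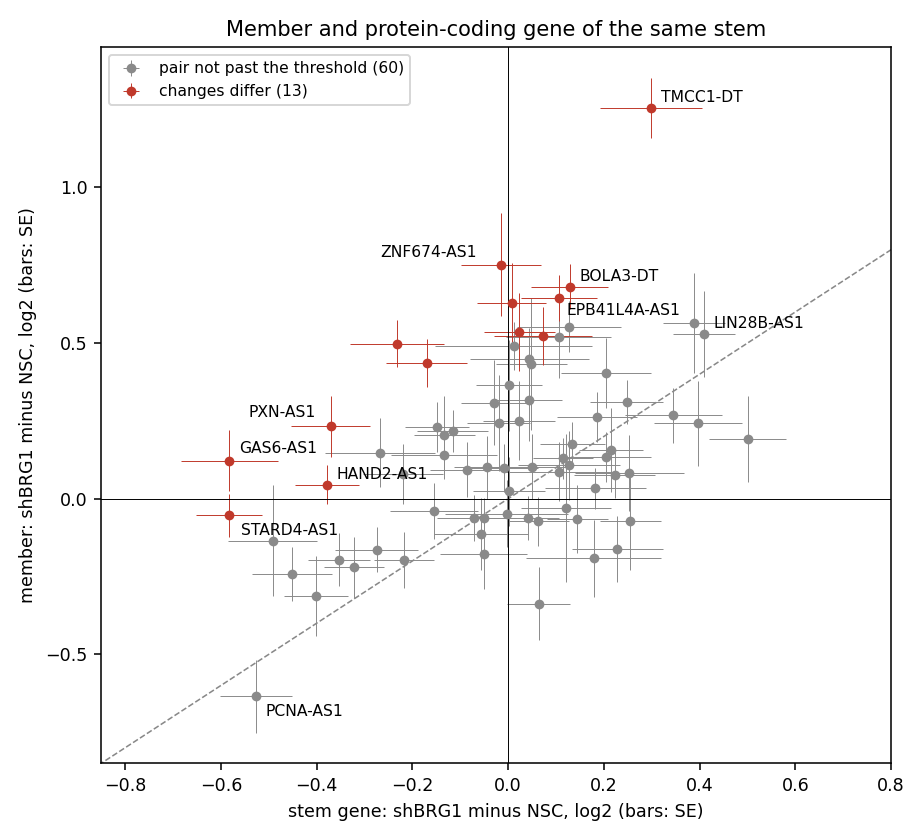
The plot sets the log2 change (shBRG1 minus NSC) of each of 73 members, vertical, against that of the protein-coding gene of its stem, horizontal, with SE bars and a diagonal of equal change. Of the points, 50 lie above the diagonal, and the 13 marked pairs with unequal change are all among them.

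Whether a member changed by another amount than its stem gene was tested on the difference of the pair within each array. Of the 73 pairs 13 passed (limma, adjusted over all 388 such pairs on the array whatever their brightness), or 17.8%, against 13.1% of all 388 pairs. In all 13 the member had changed upward relative to its stem gene. At an unadjusted p under 0.05 there were 23 upward and 3 downward pairs, so some pairs lay the other way without passing. Over all 388 pairs, 35 calls were upward and 16 downward.

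In 9 of the 13 pairs the member rose and the stem gene did not pass. TMCC1 averaged 6.29 ± 0.21 in shBRG1 and 5.99 ± 0.02 in NSC, a change of 0.30 (adjusted p = 0.102), so that TMCC1-DT exceeded its change by 0.96 ± 0.14 (adjusted p = 0.00342). ZNF674 averaged 4.47 ± 0.12 in shBRG1 and 4.48 ± 0.06 in NSC, and the change of ZNF674-AS1 was larger by 0.77 ± 0.17 (adjusted p = 0.0151). BOLA3 averaged 9.86 ± 0.11 in shBRG1 and 9.73 ± 0.05 in NSC, and that of BOLA3-DT was larger than its change by 0.55 ± 0.13 (adjusted p = 0.0196). The groups overlapped for ZNF674 and BOLA3, while for TMCC1 they did not, and the gap was narrower than that of TMCC1-DT. RBM26, with 8.77 ± 0.13 in shBRG1 and 8.94 ± 0.06 in NSC, differed by -0.17 (adjusted p = 0.232) while its antisense transcript rose, for a pair difference of 0.61 ± 0.13 (adjusted p = 0.0151). In change, ARHGAP5-AS1 exceeded ARHGAP5 by 0.62 ± 0.15 (adjusted p = 0.0196), GARS1-DT exceeded GARS1 by 0.51 ± 0.15 (adjusted p = 0.0379) and MRPL20-AS1 exceeded MRPL20 by 0.45 ± 0.13 (adjusted p = 0.0371). EPB41L4A-AS1 likewise exceeded EPB41L4A by 0.54 ± 0.14 (adjusted p = 0.0196), and CD27-AS1 exceeded CD27 by 0.73 ± 0.13 (adjusted p = 0.00805), but both stem genes were dim, with means of 2.50 and 3.64. ZNF674, with a mean of 4.48, also lay under 5.

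In the other 4 pairs the protein-coding gene fell and the antisense transcript did not pass. GAS6, the ligand of the TAM receptor kinases, averaged 5.44 ± 0.11 in shBRG1 and 6.03 ± 0.15 in NSC (adjusted p = 0.00817), and GAS6-AS1 differed from its change by 0.70 ± 0.14 (adjusted p = 0.00915). STARD4, a sterol transfer protein gene, averaged 9.84 ± 0.04 in shBRG1 and 10.42 ± 0.07 in NSC (adjusted p = 0.00204), with a pair difference of 0.53 ± 0.13 (adjusted p = 0.0196). PXN, which encodes the focal adhesion protein paxillin, averaged 6.48 ± 0.05 in shBRG1 and 6.86 ± 0.12 in NSC (adjusted p = 0.0215), with a pair difference of 0.60 ± 0.14 (adjusted p = 0.0185). The call of PXN itself was lost with any array but NSC replicate 2 left out. HAND2 averaged 8.86 ± 0.05 in shBRG1 and 9.24 ± 0.04 in NSC (adjusted p = 0.00859) beside the nearly level HAND2-AS1, and the pair difference was 0.42 ± 0.13 (adjusted p = 0.0399). Whether a probe set of an overlapping pair also reads the opposite strand was not tested.

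These pair calls depended on single arrays. The calls of TMCC1-DT, CD27-AS1 and GAS6-AS1 held in all 13 alternatives run for a pair at this threshold. Leaving out 1 array gave 4 pairs (without NSC replicate 2), 5 (without shBRG1 replicate 2), 6 (without shBRG1 replicate 3), 7 (without NSC replicate 3), 10 (without NSC replicate 1) or 11 (without shBRG1 replicate 1). HAND2-AS1 and MRPL20-AS1 lost the call whichever array was left out.

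A comparison added after the values were seen set each member beside the protein-coding gene whose listed start faces away from it on the other strand within 1 kb, whatever its name. Of 97 members with a listed start 57 had such a neighbour, with 7 to 992 bases between the starts and a median of 157. The stem gene itself was that neighbour for 42 members, and a gene of another name for 15. Of the 57 members 17 rose and 0 fell, against 17.1% and 11.7% of named genes at or above 5. Their median change was 0.23, and 2 had lower values at an unadjusted p under 0.05 (limma). Of the 40 members with a listed start and no such neighbour 7 rose and 3 fell, with a median change of 0.02. The difference between the 57 and the 40 was not tested.

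The neighbour was measured for 33 members, whose median change was 0.22, against 0.05 for the neighbours. The member's change lay above that of the neighbour in 24 of the 33 pairs, and Pearson's r between the changes was 0.28. Of 10 members that rose and had a measured neighbour, 1 had a neighbour that rose, LIN28B. Unequal change was found in 8 pairs (limma, adjusted over 117 such pairs of any brightness), or 24.2%, against 17.9% of the 117. In all 8 the member had changed upward relative to its neighbour.

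Of these 8 pairs, 6 bear the same stem and stand among the 13 above. The other 2 are the windows of differently named genes printed above. CCNL2, which encodes a cyclin of splicing-associated kinases, averaged 7.41 ± 0.06 in shBRG1 and 7.44 ± 0.16 in NSC, and the change of MRPL20-AS1 was larger by 0.55 ± 0.15 (adjusted p = 0.00624). TAPBPL, which encodes a peptide editor of MHC class I, averaged 5.59 ± 0.06 in shBRG1 and 5.66 ± 0.04 in NSC, and the change of CD27-AS1 was larger by 0.56 ± 0.15 (adjusted p = 0.00583). In both the neighbour's groups overlapped and the antisense transcript's did not. By contrast RNASEH1-DT and RNASEH1, whose starts are 53 bases apart, differed between the groups by 0.13 and 0.11, and neither passed (adjusted p = 0.24 and adjusted p = 0.278). The pair of HAND2-AS1 and HAND2 lost its call in several settings, each left-out array among them, and the other 7 pairs kept theirs in every alternative run. The pooled spread of this smaller fit gave each of the 8 differences nearly the same SE, 0.15 to 0.16. The stability of these calls thus rests little on the spread of the single pair. In the stem-pair fit, only TMCC1-DT of the 6 pairs of the same stem kept its call in every alternative.

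**Figure D4:**
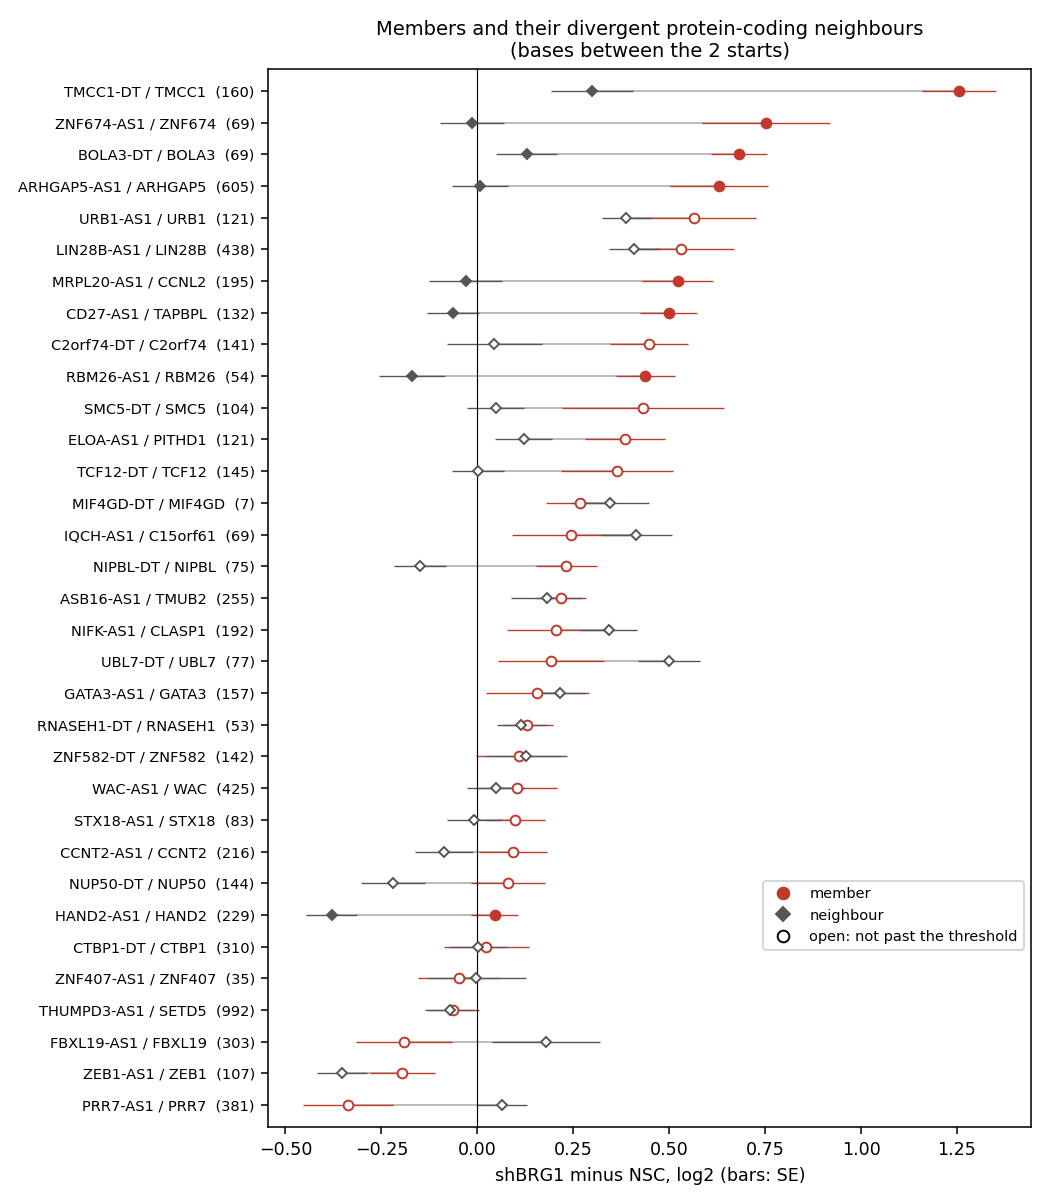
The plot gives the log2 change (shBRG1 minus NSC) with its SE for 33 members (circles) and for the protein-coding gene facing away from each (diamonds), with the bases between the starts beside the names. Filled symbols mark the 8 pairs with unequal change, in which the circle lies right of the diamond.

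The windows around the members' starts were rich in GC and CpG, as many promoters of protein-coding genes are. The 97 member windows had a median GC content of 65.7% and 27 CpG dinucleotides, against 58.3% and 14 over all 27305 RefSeq windows and 62.7% and 22 over those of protein-coding genes. Over the windows of long non-coding RNAs the medians were 50% and 5. Unlike the members, these reference windows were not chosen by level. The 24 windows of members that rose had medians of 71.8% and 28. Windows of members with an outward-facing neighbour had medians of 68.3% and 29, and those without one 60.8% and 18.5.

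Short motifs were counted on both strands as exact letters. TATAAA, the core of the TATA box, stood in 5.15% of member windows and 12.0% of all windows. CACGTG, the E-box bound by MYC family factors, stood in 11.3% and 7.43%, and CCGGAAG, an ETS core, in 18.6% and 10.7%. CCAAT stood in 32.0% and 35.7%. In windows of protein-coding genes TATAAA stood in 9.63%, the E-box in 8.88%, the ETS core in 14.2% and CCAAT in 36.4%, and the first 3 of these shares lay nearer to those of the members. The same shares in windows of long non-coding RNAs were 15.2%, 5.44%, 5.74% and 34.8%. In members that rose the shares were 4.17% for TATAAA, 8.33% for the E-box, 16.7% for the ETS core and 25.0% for CCAAT, against 5.71%, 12.9%, 20.0% and 34.3% in members not past the threshold, and none of these differences was tested. Among the printed windows, those of RBM26-AS1 and MRPL20-AS1 hold the ETS core, those of MRPL20-AS1 and HAND2-AS1 hold CCAAT, and that of CD27-AS1 holds the E-box. These matches describe the letters and not binding.

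Genes linked to the ending or decay of such transcripts, whether they promote or limit it, were read from the same fit. Of 42 listed nuclear RNA decay and termination genes 30 were measured, and 9 rose (30.0%) and 0 fell, against 17.1% and 11.7% of named genes at or above 5. Counted in either direction, the 30.0% was close to the 28.8% of named genes at or above 5. The listed genes were also brighter, with a median level of 7.99 against 6.90. At an unadjusted p under 0.05 there were 12 higher and 0 lower (limma), and the share of all named genes there was not computed. The list's median change was 0.15, against 0.06 over named genes at or above 5. Among exosome subunits EXOSC3 read 6.75, 6.70 and 6.72 in the shBRG1 arrays, against 6.39, 6.36 and 6.32 in the NSC arrays (log2 change 0.37 ± 0.06, adjusted p = 0.00793), with the groups well apart. EXOSC7 changed by 0.40 (adjusted p = 0.0149), EXOSC2 by 0.33 (adjusted p = 0.0334), EXOSC6 by 0.30 (adjusted p = 0.029) and EXOSC1 by 0.30 (adjusted p = 0.0262). EXOSC10, a nuclear exosome nuclease, differed by 0.01.

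MTREX, the helicase that feeds the nuclear exosome, changed by 0.24 (adjusted p = 0.0355), and NRDE2, which binds it, by 0.41 (adjusted p = 0.0166). ZC3H4, which restricts unstable non-coding transcription, changed by 0.29 (adjusted p = 0.0357), and TOX4, a partner of a phosphatase complex that acts at termination, by 0.34 (adjusted p = 0.021). Of these 9 calls, that of EXOSC3 held in all 14 alternatives. Without shBRG1 replicate 2 there was 1 call, without NSC replicate 2 there were 2, without NSC replicate 1 or shBRG1 replicate 3 there were 3, and without NSC replicate 3 or shBRG1 replicate 1 there were 4. After cyclic loess there were 5.

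**Figure D5:**
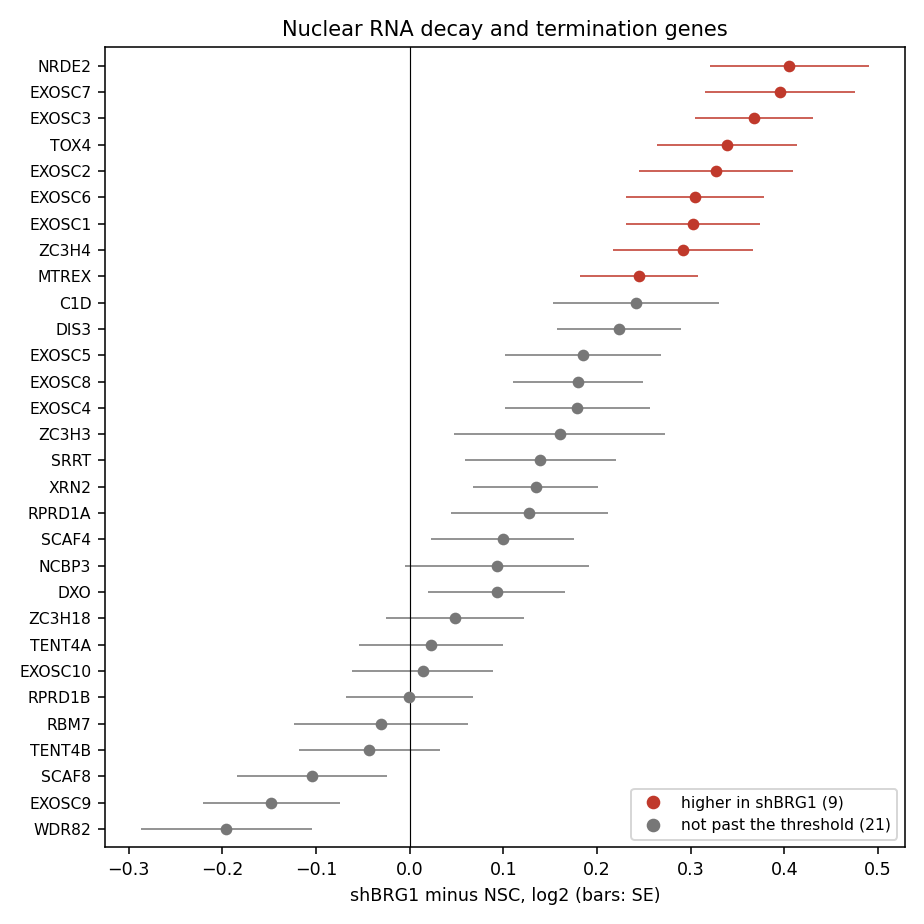
The plot gives the log2 change (shBRG1 minus NSC) with its SE for the 30 measured nuclear RNA decay and termination genes, ordered by size. The 9 coloured points rose, by 0.24 to 0.41, and the 21 grey points did not pass the threshold.

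By name and position, 7 of the 23 divergent-named members rose and 0 fell (limma), with a median change of 0.27 and 0 lower at an unadjusted p under 0.05. Of the 89 antisense-named members 18 rose and 3 fell, with a median of 0.10. Members whose start faces away from that of the stem gene within 1 kb numbered 41, of which 11 rose and 0 fell, with 1 lower at an unadjusted p under 0.05. Where the 5′ ends of the pair overlap within 1 kb, 1 of 14 rose (TMEM147-AS1) and 1 fell (PCNA-AS1). Of 35 members starting over 1 kb from the stem gene 10 rose and 2 fell. For comparison, 17.1% of named genes at or above 5 rose and 11.7% fell. These classes were not tested against each other. Among the 138 other long non-coding RNAs at or above 5, 27.5% rose and 6.52% fell, with a median change of 0.15, so rises also outnumbered falls outside the antisense and divergent names.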

How the data were processed

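Total RNA of 6 samples (3 shBRG1, 3 NSC, grouped by the lentivirus label) was hybridised to 1 Affymetrix array each. The deposited values are log2 values per probe set, for which the submitters' processing notes name RMA, oligo 1.27, limma 3.19 and R 3.1.0. RMA sets arrays to a common distribution, so a shift of all transcripts at once would not be seen. Values ran between 1.19 and 13.8 and were therefore read as log2. For the probes, no build is given in the sources used here. The table holds 52299 probe sets. Under GEO's platform annotation 15828 carry 1 symbol, brought up to date by gene identifier, 36471 carry none and 0 carry several. The brightest probe set of a gene was kept, giving 14883 genes (of the 112 members, 95 had 1 probe set and 17 several). The number of arrays limits the precision, and the median SE of a member's change was 0.10.

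Each gene was fitted with limma 3.58.1 in R 4.3.3 (lmFit, eBayes, two-sided, no covariate), with Benjamini-Hochberg adjustment over all named genes and a threshold of 0.05. Unequal change was fitted on the per-array difference of 2 transcripts, adjusted over all such pairs. With 3 arrays per group the smallest p of an exact permutation test is 0.1. Levels of different probe sets were not compared. Starts and windows are those of RefSeq on GRCh38.p14. The closest pair of listed starts was used for distances and for the printed windows. Base composition and motif shares used the first listed start of each gene, which may be another start. The fit was tested on simulated data. The members, the decay and marker lists and the tests were chosen with earlier results of these data known. Named were every member past the threshold with its stem gene where a result turns on it, the 10 brightest, the 5 largest changes not past the threshold, 3 genes on each side of a mean of 5, every pair with unequal change, and decay genes past the threshold. Alternatives were median centring, cyclic loess, a filter on dim genes, averaged probe sets, eBayes with trend and robust options, array weights, a replicate block, leaving out each array, every probe set tested, an adjusted p of 0.01, other brightness limits and a fold of at least 1.5. Plots used Python 3.11.15 and matplotlib 3.10.9.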

Additional observations from a re-analysis of the deposited data

How the results depend on the processing

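The 28 called members kept their direction in the alternatives run, and 17 of the 84 members not past the threshold changed sign in at least 1. The counts below are of calls past the threshold. Leaving out 1 array in turn gave 16 to 21 members in place of 28 (15 to 19 rises, 1 to 3 falls), 12 to 14 stem genes in place of 15, 4 to 11 stem pairs in place of 13, 7 to 9 neighbour pairs in place of 8, 1 to 4 decay genes in place of 9 and 1604 to 1840 named genes in place of 2525. At an adjusted p of 0.01 there were 13 members (13 rises, 0 falls), 8 stem genes, 3 stem pairs, 1086 named genes and 1 decay gene. Adjusting over every probe set gave 14 members (13 rises, 1 fall), 1259 named genes and 1 decay gene. Restricting the test to genes at or above the median gene gave 39 members, with 6 falls, and 23 stem genes, and eBayes with trend and robust options also gave 23 stem genes. Cyclic loess left 5 decay genes. A brightness limit of 4.5 gave 7 falls among the members and 20 stem pairs, and one of 6 gave 14 members (13 rises, 1 fall) and 5 stem pairs. Asking for at least 1.5-fold left 8 members (7 rises, 1 fall). Limiting the stem pairs to stem genes at or above 5 left 10, an alternative chosen after seeing the data, as were the neighbour pairs. Deviations of same-numbered samples correlated at -0.04, -0.14 and -0.03, so the numbers were not taken to pair the samples. With the replicate block there were 21 members, 11 stem pairs, 1608 named genes and 2 decay genes, and HAND2-AS1 lost its call against HAND2. Fits on fewer samples have less power, and the number of features tested enters the adjustment. The cause of the differences between settings was not tested. Dim transcripts limit the rest: 475 genes of the same naming lay under 5, where 3.79% passed.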

Other observations

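Among the 475 antisense and divergent genes under a mean of 5, 11 rose and 7 fell, or 3.79%, against 17.0% of all named genes at any level. Of the 2525 calls among all 14883 named genes, 2197 were of the 7623 genes at or above 5. Calls were thus few among dim genes of any name, and 17.0% is not a like comparison for these 475. ADAMTS9-AS2, named after a metalloprotease gene, had the largest fall of them, averaging 4.48 in shBRG1 and 5.43 in NSC, a log2 change of -0.95 (limma, adjusted p = 0.00303), and was chosen after its values were seen. Its NSC mean lies above the limit that its mean over both groups missed. EPCIP-AS1 had the largest rise of them, averaging 4.04 in shBRG1 and 3.21 in NSC, a log2 change of 0.82 (limma, adjusted p = 0.025), and was also chosen after its values were seen. NCAM1-AS1, chosen the same way and named after a neural cell adhesion molecule, averaged 4.48 in shBRG1 and 4.90 in NSC, a log2 change of -0.42 (limma, adjusted p = 0.0272).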
